A study of Mus with 7 samples.

Results

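The dual-specificity phosphatases that switch off MAP kinases were followed in fetal liver-derived macrophages (FLMs) given LPS with or without the omega-3 fatty acid DHA. The 6 genes were Dusp1, Dusp2, Dusp4, Dusp5, Dusp6 and Dusp16, taken by symbol from the 31053 genes of the count files. Each symbol matched 1 gene, and all 6 had a mean of at least 2 CPM over the libraries (CPM is a gene's count scaled to a common library total), as did 9807 genes in all. LPS for 1 h gave much higher Dusp1, Dusp2 and Dusp5, a moderately higher Dusp16 and Dusp4, and a lower Dusp6. By 4 h Dusp1, Dusp2 and Dusp5 were well below their 1 h levels, and Dusp6 was back above its level before LPS. Dusp2 was lower with DHA than with vehicle at each hour of LPS, by the most at 4 h, where its ratio was 0.451 (0.392 to 0.515). At 0 h its ratio was 0.792, with an interval that came close to 1 (0.63 to 0.989).

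MAP kinases (ERK, JNK and p38) are active only while a threonine and a tyrosine in their activation loop both carry phosphate, and dual-specificity phosphatases remove both. Several of these phosphatases are themselves made in response to the kinases they act on, which closes a negative feedback loop. In macrophages the loop shapes how long Toll-like receptor 4, the LPS receptor, drives cytokine transcripts. Dusp1 (MKP-1), Dusp2 (PAC-1), Dusp4 (MKP-2) and Dusp5 act in the nucleus. Dusp6 (MKP-3) acts in the cytoplasm on ERK, and Dusp16 (MKP-7) acts mainly on JNK and p38.

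FLMs are wild-type mouse macrophages grown out of fetal liver and kept dividing in 30 ng/mL GM-CSF, which all 7 groups received. Con cells were collected in 10% FBS before any treatment. All other cells spent 24 h in 0.25% FBS with 8.3 µM BSA, either alone as the vehicle (Veh.LPS.0) or carrying 25 µM DHA (DHA.LPS.0). Cells of both arms were also collected after 1 h (Veh.LPS.1, DHA.LPS.1) or 4 h (Veh.LPS.4, DHA.LPS.4) of 20 ng/mL LPS. The cells are a long-term culture used at a late passage. Fetal livers were plated at 1 liver per dish, and whether dishes were pooled later was not given. Each condition was 1 library of single cells, so treatment and library cannot be told apart and no difference has a replicate check or a test. Intervals are 95% intervals that cover counting error only. They are exact for a CPM (Poisson), a share (Clopper-Pearson) and a ratio (binomial on the split of the UMIs). For a ratio of LPS ratios the interval is a normal approximation from the counting errors of its UMI sums. UMIs (unique molecular identifiers) count captured 3′ transcript ends, so CPM was compared between genes without dividing by length.

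A total of 692 to 3073 cells per library passed the limits of the study's methods, with median depths of 29369 to 56239 UMIs per cell. The limit of 20% mitochondrial UMIs was exceeded by 29.0% of barcodes in Con, 35.8% to 54.7% in the Veh libraries and 74.4% to 80.0% in the DHA libraries. Of 11624 distinct barcodes kept, 16 occurred in more than 1 library. The 9 macrophage markers summed to 5820 to 7090 CPM. The 5 mast cell markers were at 0 in every library, the neutrophil list was between 0.0571 and 7.53 CPM (highest in DHA.LPS.4), and the hepatocyte list was between 5.48 and 7.71 CPM, nearly all of it Afp, with Alb at 0 throughout. Erythroid, stromal, endothelial, dendritic cell and lymphoid lists each summed to at most 1.95 CPM. No population that should lack these phosphatases was present to give a background share of cells with a UMI. Cells with at most 3 UMIs of a 12-gene mitosis list, called low-cycling below, made up 3.4% of Con, 12.7%, 15.9% and 58.3% of Veh at 0, 1 and 4 h, and 27.9%, 28.9% and 51.3% of DHA at those hours.

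Dusp1 (ENSMUSG00000024190, mm10 chromosome 17, 26505591 to 26508472) encodes a nuclear phosphatase for p38, JNK and ERK and is the best known brake on LPS signaling among the 6. Its level was 2.82 CPM in Con, 3.53 in Veh.LPS.0 and 4.05 in DHA.LPS.0. It was 81.85 CPM in Veh.LPS.1, 105 in DHA.LPS.1, 13.7 in Veh.LPS.4 and 13.7 in DHA.LPS.4. Both 1 h libraries were far above all others, with the DHA library higher by a ratio of 1.29 (1.23 to 1.34). Both 4 h libraries came next and did not differ from each other beyond counting error (ratio 1.00, 0.876 to 1.15), and neither did DHA.LPS.0 from Veh.LPS.0 (ratio 1.15, 0.937 to 1.40).

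Dusp2 (ENSMUSG00000027368, chromosome 2, 127336159 to 127338377) encodes a nuclear phosphatase found mainly in immune cells. It had the widest range of the 6, with 115 times more in its highest library than in its lowest. It was at 5.65 CPM in Con, 3.675 in Veh.LPS.0 and 2.91 in DHA.LPS.0. After 1 h of LPS it was at 335 CPM with vehicle (332 to 339) and at 229 with DHA (224 to 234). It was at 25.2 CPM in Veh.LPS.4 and 11.3 in DHA.LPS.4. All 7 libraries differed from their neighbours in this order beyond counting error, and the DHA library was the lower of the pair at each hour. At 0 h the margin was small, with a ratio of DHA to vehicle of 0.792 (0.63 to 0.989) on 102 and 363 UMIs.

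Dusp5 (ENSMUSG00000034765, chromosome 19, 53529145 to 53541809) encodes a nuclear phosphatase that acts on ERK alone and also holds it in the nucleus. It was the lowest of the 6 genes before LPS, at 1.46 CPM in Con, 1.89 in Veh.LPS.0 and 2.60 in DHA.LPS.0. It was at 115 CPM in Veh.LPS.1, 125 in DHA.LPS.1, 41.3 in Veh.LPS.4 and 36.8 in DHA.LPS.4. Its 4 h levels stayed far from the resting ones, unlike those of Dusp1: Veh.LPS.4 was 21.8 times Veh.LPS.0 for Dusp5 and 3.88 times for Dusp1.

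Dusp4 (ENSMUSG00000031530, chromosome 8, 34807610 to 34819894) encodes a nuclear phosphatase related to Dusp1. It climbed in steps across the design, from 7.80 CPM in Con to 19.35 in Veh.LPS.0 and 28.95 in DHA.LPS.0. With LPS it was at 32.65 CPM in Veh.LPS.1, 42.2 in DHA.LPS.1, 48.9 in Veh.LPS.4 and 46.45 in DHA.LPS.4. Within each arm it was higher at each later hour over all kept cells, but in low-cycling cells its log2 ratio of 4 h to 1 h was -0.04 with vehicle and -0.36 with DHA. The 2 libraries at 4 h did not differ beyond counting error (ratio 1.05, 0.980 to 1.13).

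Dusp6 (ENSMUSG00000019960, chromosome 10, 99263231 to 99267489) encodes the cytoplasmic ERK phosphatase and went the other way. It was the highest of the 6 in Con, at 24.5 CPM, and stood at 24.5 in Veh.LPS.0 and 21.55 in DHA.LPS.0. After 1 h of LPS it was at 8.90 CPM with vehicle and 8.49 with DHA, the 2 lowest values of the series, which did not differ from each other (ratio 1.05, 0.913 to 1.21). At 4 h it was at 33.6 CPM with vehicle and 31.9 with DHA, the 2 highest values.

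Dusp16 (ENSMUSG00000030203, chromosome 6, 134715468 to 134807063) encodes a JNK and p38 phosphatase. It was at 9.275 CPM in Con, 9.89 in Veh.LPS.0 and 8.74 in DHA.LPS.0, 3 values that did not differ from their neighbours beyond counting error. It was at 31.7 CPM in Veh.LPS.1, 25.2 in DHA.LPS.1, 29.3 in Veh.LPS.4 and 27.5 in DHA.LPS.4. The 4 libraries with LPS thus lay above the 3 without it, and the 4 h level was 0.925 (0.871 to 0.982) of the 1 h level with vehicle and 1.09 (0.980 to 1.21) times it with DHA. With vehicle the direction depended on scaling, with a log2 ratio of -0.11 by total UMIs, 0.23 with TMM and 0.22 with DESeq2 factors.

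**Figure D1:**
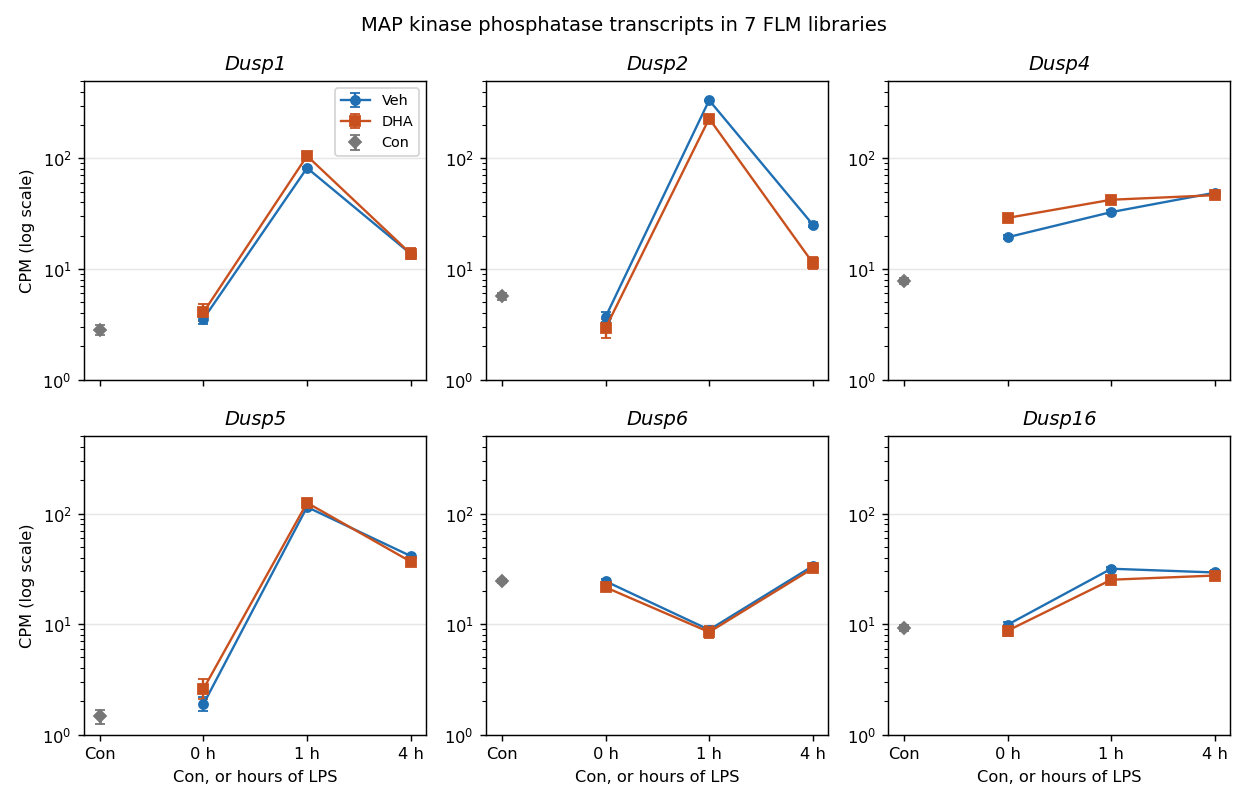
CPM of each phosphatase gene (log axis) in Con (diamond) and after 0, 1 and 4 h of LPS with vehicle (blue circles) or DHA (orange squares), 1 library per point, with exact Poisson 95% intervals. Dusp1, Dusp2 and Dusp5 peak at 1 h, Dusp6 dips at 1 h, Dusp4 is highest at 4 h over all kept cells (not within low-cycling cells) and Dusp16 is high at both 1 h and 4 h.

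Serum reduction with BSA, set against untreated cells, compared cells after 24 h of reduced serum and added BSA with cells collected before that time. Serum, BSA and the added time in culture cannot be told apart in it. A gene was taken as different where the ratio of CPM lay above 1.5 or below its inverse. Dusp4 was higher in Veh.LPS.0 than in Con, by a ratio of 2.48 (2.30 to 2.68), against 12.4% of all 9807 genes. Dusp2 was lower, with a ratio of 0.651 (0.572 to 0.740), against 7.22% of all genes. Within low-cycling cells the log2 ratio of Dusp2 had the other sign, 0.33 against -0.62. So did that of Dusp5, which lay within the limit, at -0.53 against 0.37. Both rest on few UMIs from the 99 such cells of Con, 11 of Dusp2 and 20 of Dusp5, with 42 of each in Veh.LPS.0. No interval was computed for these ratios, so a change of direction was not read from them. The other 4 genes lay within the limit, with log2 ratios from -0.00 for Dusp6 to 0.37 for Dusp5, and the median of the 6 was 0.208 against -0.0339 over all genes.

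LPS for 1 h with vehicle gave 5 of the 6 genes a level over the limit, where 4.85% of all genes were, and put 1 under it, where 6.65% were. The ratios to Veh.LPS.0 were 91.2 (log2 6.51, 6.36 to 6.66) for Dusp2, 60.5 (52.4 to 70.3) for Dusp5 and 23.2 (20.8 to 25.9) for Dusp1. They were 3.21 (2.98 to 3.45) for Dusp16 and 1.69 (1.59 to 1.79) for Dusp4. Dusp6 was the gene under the limit, at 0.364 (0.336 to 0.393) of its level before LPS. The median log2 ratio of the 6 genes was 3.11 against -0.112 for all genes. Scaling by TMM or DESeq2 factors in place of total UMIs left these 6 calls as they were, and moved the share of higher genes among all genes past the limit from 42.2% to 52.7% or 56.7%.

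LPS for 1 h with DHA, measured from DHA.LPS.0, gave the same order of ratios. Ratios were 78.6 for Dusp2, 48.2 for Dusp5, 26.0 for Dusp1 and 2.89 for Dusp16, so 4 genes were over the limit beside 5.49% of all genes. Dusp4 was just within it at 1.46 (1.34 to 1.58), and with TMM or DESeq2 factors it was over it. Dusp6 was the 1 gene under the limit, beside 7% of all genes, at 0.394 (0.341 to 0.453). The share of higher genes among all past the limit was 44.0% with total UMIs and 58.3% or 59.6% with the 2 other scalings.

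LPS for 4 h put 41.5% of all genes under the limit with vehicle and 35.3% with DHA when scaled by total UMIs. Of the phosphatases, 5 of 6 were over the limit in each arm, beside 9.89% of all genes with vehicle and 10.2% with DHA, and none was under it. With vehicle the ratios to 0 h were 21.8 for Dusp5, 6.85 for Dusp2, 3.88 for Dusp1, 2.97 for Dusp16 and 2.53 for Dusp4. With DHA they were 14.2 for Dusp5, 3.89 for Dusp2, 3.39 for Dusp1, 3.15 for Dusp16 and 1.60 for Dusp4. Dusp6 was also higher than at 0 h, by 1.37 (1.29 to 1.46) and 1.48 (1.34 to 1.64), short of the limit. The median gene had a log2 ratio of -0.42 with vehicle and -0.30 with DHA when scaled by total UMIs, and of 0.01 and -0.00 with TMM factors, so relative to the median gene each phosphatase was higher by that much more and Dusp6 then passed the limit in both arms. The share of higher genes among all past the limit moved from 19.2% to 46.0% (TMM) or 47.3% (DESeq2) with vehicle, and from 22.5% to 45.2% or 48.8% with DHA. All 12 genes of the mitosis list were lower at 4 h with vehicle, beside 41.5% of all genes. Of them, 10 were higher with DHA than with vehicle at that hour, beside 4.97% of all genes. Low-cycling cells made up 58.3% of Veh.LPS.4 against 12.7% of Veh.LPS.0, and within them Dusp4 no longer passed the limit, with log2 ratios of 0.56 with vehicle and 0.33 with DHA. In the same cells the log2 ratio of Dusp1 was 0.96 with vehicle and 0.94 with DHA, under 2-fold where all kept cells gave 3.88-fold and 3.39-fold, and that of Dusp5 was 3.56 and 3.23 (4.45 and 3.82).

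From 1 h to 4 h, 3 of the 6 genes were lower by more than the limit in each arm, beside 34.1% of all genes with vehicle and 26.4% with DHA. Dusp2 at 4 h was at 0.0751 (0.0712 to 0.0791) of its 1 h level with vehicle and 0.0496 (0.0435 to 0.0562) with DHA. Dusp1 was at 0.167 and 0.131 of its 1 h level, and Dusp5 at 0.361 and 0.294. Dusp6 was the 1 gene higher by more than the limit, beside 7.81% and 7.88% of all genes, at 3.77 (3.48 to 4.10) and 3.76 (3.27 to 4.35) times its 1 h level. Dusp4 was at 1.5 (1.42 to 1.58) times its 1 h level with vehicle, at the limit but not past it, and passed it with TMM or DESeq2 factors, while in low-cycling cells it was at a log2 ratio of -0.04 with vehicle (0.58 over all kept cells) and -0.36 with DHA (0.14). Those scalings moved the share of higher genes among all past the limit from 18.6% to 44.1% or 43.2% with vehicle and from 23.0% to 40.1% or 44.2% with DHA.

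Summed over the 6 genes, phosphatase transcripts went from 51.5 CPM in Con and 62.8 in Veh.LPS.0 to 605 in Veh.LPS.1 and 192 in Veh.LPS.4. With DHA the sum was 68.8, 535 and 168 CPM at 0, 1 and 4 h. The gene that supplied most of it changed with time. Dusp6 held 47.6% (46.4 to 48.8) of the sum in Con and 38.9% in Veh.LPS.0, while Dusp4 led in DHA.LPS.0 with 42.1%. At 1 h Dusp2 supplied 55.4% with vehicle and 42.8% with DHA, and Dusp6 only 1.47% and 1.59%. At 4 h no gene held more than 27.7%, and Dusp4 led in both arms with 25.5% and 27.7%.

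**Figure D2:**
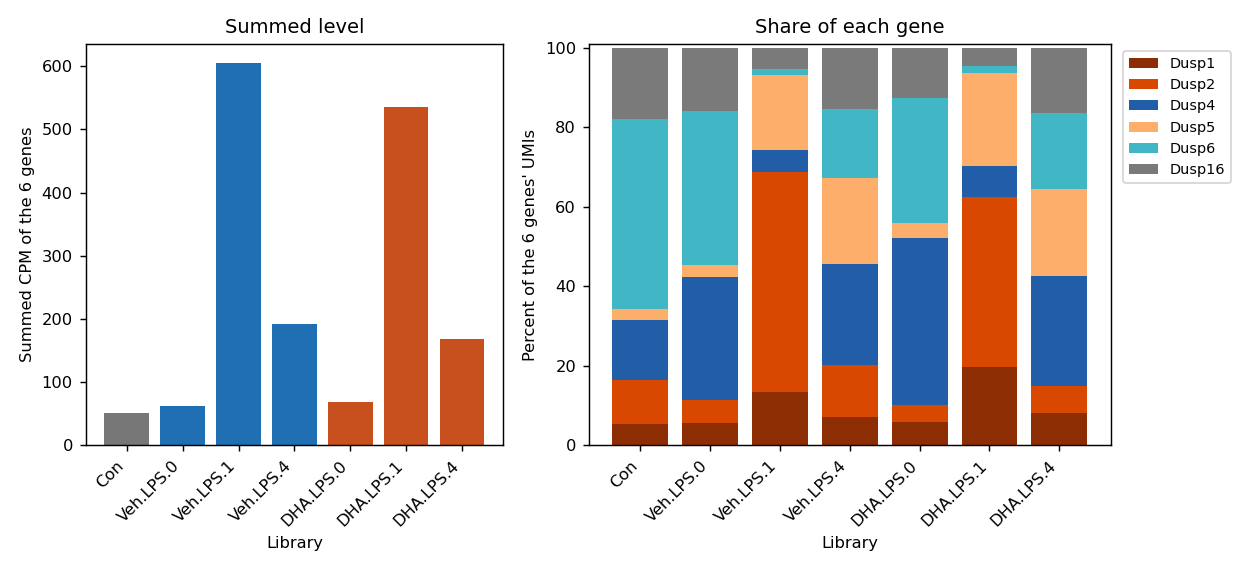
Left, summed CPM of the 6 phosphatase genes in each library. Right, the percent of those UMIs from each gene. The sum is largest at 1 h, where Dusp2 holds 55.4% with vehicle and 42.8% with DHA, and Dusp6, the largest part in Con, holds 1.47% and 1.59%.

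DHA against vehicle asked whether the fatty acid changed these transcripts before or during LPS. At 0 h none of the 6 genes passed the limit, beside 1.79% of all genes higher and 1.5% lower. Dusp4 lay nearest, at 1.5 (1.39 to 1.62) times the vehicle level, and Dusp5 was at 1.37 (1.06 to 1.77). Dusp4 passed the limit under TMM and DESeq2 scaling, but its log2 ratio was 0.58 over kept cells and 0.23 over all barcodes. The median over all genes was -0.05 over kept cells and -0.22 over all barcodes.

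At 1 h again none passed, beside 2.1% of all genes higher and 2.42% lower. Dusp2 came closest, at 0.683 (0.665 to 0.700) of the vehicle level, and Dusp16 was at 0.796 (0.735 to 0.860). Dusp1 and Dusp4 were both 1.29 times higher with DHA, Dusp5 1.09 times (1.05 to 1.13), and Dusp6 did not differ beyond counting error (0.954, 0.829 to 1.10). Dusp1 and Dusp2 thus lay on opposite sides of vehicle in the kept cells of the same 2 libraries. Over all barcodes the log2 ratio of Dusp1 was 0.02 (0.36 over kept cells) and that of Dusp4 0.07 (0.37). That of Dusp2 was -0.83 (-0.55). The median over all genes was also lower over all barcodes, at -0.28 (-0.05).

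At 4 h Dusp2 was the 1 gene of the 6 past the limit, lower with DHA at 11.3 against 25.2 CPM, beside 2.77% of all genes lower. None was higher by more than the limit, beside 4.97% of all genes. Over all kept cells Dusp1, Dusp4, Dusp6 and Dusp16 had ratios from 0.939 to 1.00 with intervals that included 1, and Dusp5 was at 0.890 (0.821 to 0.964). The classes of kept cells lay on opposite sides for Dusp4 and Dusp6. Dusp6 was at 0.804 (0.707 to 0.913) in low-cycling and 1.14 (1 to 1.28) in other kept cells. Dusp4 was at 1.07 (0.965 to 1.19) and 0.839 (0.76 to 0.925) in the same order. Among all genes past the limit the share of higher ones was 64.2%, and 41.8% or 50.5% with TMM or DESeq2 factors. Those scalings left Dusp2 lower by more than the limit.

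**Figure D3:**
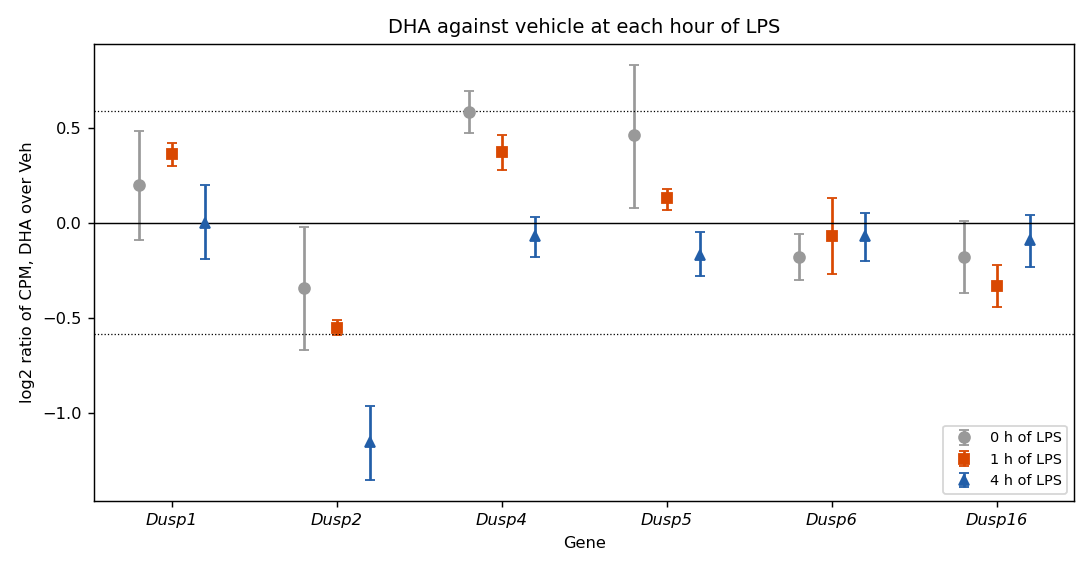
log2 ratio of CPM, DHA over vehicle, for each gene after 0, 1 and 4 h of LPS, with exact 95% counting intervals; dotted lines mark a ratio of 1.5 either way. Dusp2 lies below 0 at all 3 hours and below the lower line at 4 h, while Dusp4 lies near the upper line at 0 h and near 0 at 4 h.

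The LPS ratio itself was also compared between the arms, as the log2 of the DHA ratio over the vehicle ratio; both share their own 0 h library between the 2 times. At 4 h it was -0.81 (-1.19 to -0.44) for Dusp2, -0.66 (-0.81 to -0.51) for Dusp4 and -0.62 for Dusp5, with an interval below 0. For Dusp4 this went with a 0 h level already higher with DHA and a like 4 h level, so that its gain from 0 h was 17.5 CPM with DHA and 29.6 with vehicle. For Dusp2 it went with a lower 4 h level, a gain of 8.43 against 21.5 CPM. For Dusp1, Dusp6 and Dusp16 the interval included 0 at 4 h. At 1 h it excluded 0 for Dusp4 alone, at -0.21 (-0.35 to -0.07). Within low-cycling cells the LPS ratios of the arms lay closer for Dusp2, Dusp4 and Dusp5 at 4 h. There the log2 ratio to 0 h of Dusp4 was 0.56 with vehicle and 0.33 with DHA (1.34 and 0.68 over all kept cells). That of Dusp5 was 3.56 and 3.23 (4.45 and 3.82). For Dusp2 there, the ratio of DHA to vehicle was 0.497 (0.265 to 0.891) at 0 h and 0.326 (0.255 to 0.411) at 4 h. Those intervals overlapped. The part of cycling class in these gaps was not tested.

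Within cells, each thinned to 20000 UMIs, at least 1 of the 6 transcripts was seen in nearly all cells only after LPS. None was seen in 39.2% of Con cells, 34.5% of Veh.LPS.0 and 36.5% of DHA.LPS.0 cells. After 1 h that share was 0.586% with vehicle and 1.51% with DHA, and after 4 h 6.85% and 10.3%. At 1 h the commonest number of different phosphatase genes in a cell was 3, in 35.0% of Veh.LPS.1 and 30.8% of DHA.LPS.1 cells.

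Dusp2 was seen in 81.2% (79.8 to 82.6) of Veh.LPS.1 cells and 71.6% (68.3 to 74.7) of DHA.LPS.1 cells, and without thinning in 85.9% and 80.0%. A cell with Dusp2 held a mean of 8.55 UMIs with vehicle and 6.81 with DHA, so both the share of cells and the level per such cell were lower with DHA. More than 10 UMIs were found in 20.0% plus 6.12% of Veh.LPS.1 cells (11 to 20, and over 20) and in 12.1% plus 3.90% of DHA.LPS.1 cells. At 4 h Dusp2 was seen in 26.2% (23.5 to 29.0) and 12.7% (10.3 to 15.4) of cells. Here the mean per cell with Dusp2 was 2 and 2.03 UMIs, and 1.95 and 1.64 without the richest cell of each library. Without thinning the shares were 43.4% and 17.9%.

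A single cell of DHA.LPS.4 weighed on these values. It held 47 Dusp1 and 39 Dusp2 UMIs among 21131 in all, which was 15.5% and 15.6% of the library's UMIs of those genes. Leaving out, for each gene, the cell with the most of it in every library, a choice made after seeing the data, gave 11.6 CPM of Dusp1 and 9.58 of Dusp2 in DHA.LPS.4. The ratio of DHA to vehicle at 4 h was then 0.391 (0.336 to 0.452) for Dusp2 and 0.887 for Dusp1, with an interval that included 1. In Veh.LPS.4 the cell richest in a gene held 4.48% of Dusp1 and 2.64% of Dusp2.

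Dusp1 was seen in 62.3% (60.6 to 64.0) of Veh.LPS.1 and 64.4% (61.0 to 67.7) of DHA.LPS.1 cells, against 5% and 4.58% at 0 h and 14.1% and 15.9% at 4 h. Dusp5 was seen in 78.0% and 76.2% of cells at 1 h, and still in 46.5% and 44.2% at 4 h. Dusp4 was in 27.7% and 34.4% of cells at 0 h, 41.4% and 44.3% at 1 h, and 53.6% and 55.8% at 4 h. At 4 h the share and the CPM of Dusp4 put the arms in opposite orders, so neither was read as higher. Dusp6 was in 36.5% of Veh.LPS.0 cells, 15.2% of Veh.LPS.1 and 37.7% of Veh.LPS.4, with 32.4%, 15.2% and 37.3% in the DHA libraries. Dusp16 was in 45% and 37.4% of cells at 1 h and 41.7% and 38.7% at 4 h.

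The spread between cells was read by measures that depend on a gene's mean, so the genes were not ranked by it. At 1 h with vehicle the variance over the mean of UMIs per cell was 7.07 for Dusp2 and 3.25 for Dusp1. It was 1.12 to 2.08 for the other 4 genes, where sampling alone gives about 1. The mean was 6.95 UMIs for Dusp2, 1.69 for Dusp1 and 0.18 for Dusp6. The tenth of cells richest in a gene held 32.1% of the UMIs of Dusp2, 42.7% of those of Dusp1 and 71.3% of those of Dusp6. Pairs of the genes had low correlations within a library. The highest Spearman rho between 2 of them was 0.31, for Dusp1 and Dusp5 across the 795 cells of DHA.LPS.1. The lowest was -0.18, for Dusp2 and Dusp4 in the same library. Dusp1 and Dusp2, both high at 1 h, had a rho of 0.07 in Veh.LPS.1 and 0.00 in DHA.LPS.1. In Veh.LPS.1 both were seen in 51.1% of cells, where the product of their shares is 50.6%. These coefficients describe cells of 1 library at a fixed depth of sparse counts, which weaken rho. A low rho thus does not show that the genes are unrelated.

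**Figure D4:**
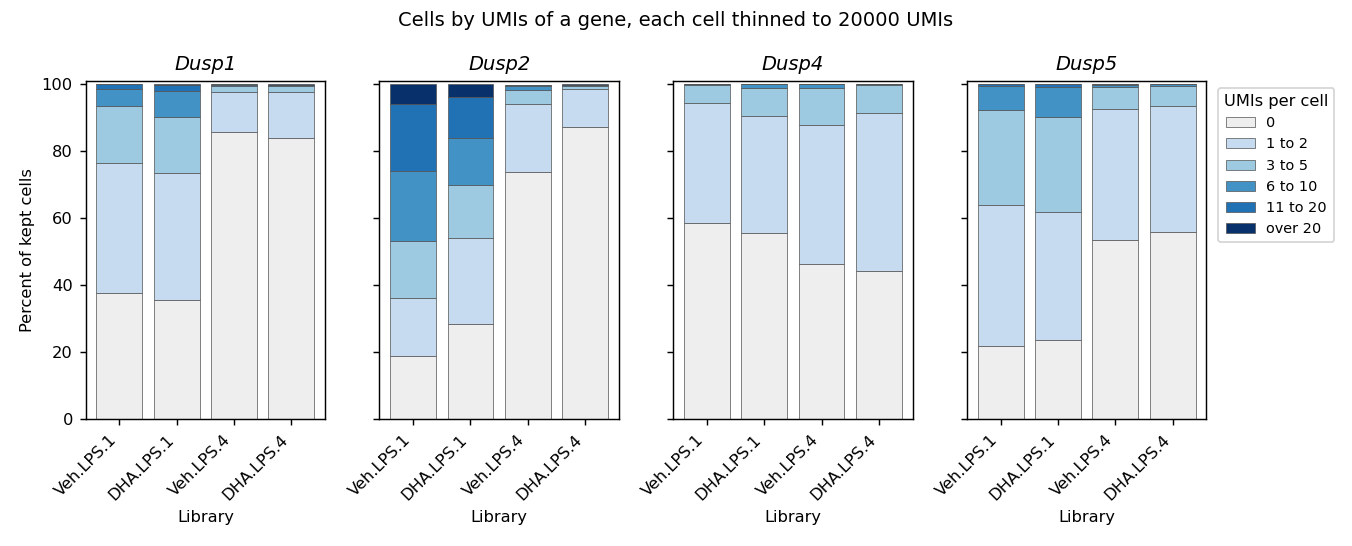
Percent of kept cells by number of UMIs of Dusp1, Dusp2, Dusp4 and Dusp5 per cell, each cell thinned to 20000 UMIs, in the 1 h and 4 h LPS libraries. Dusp2 reaches over 20 UMIs in 6.12% of Veh.LPS.1 cells, and the part of cells without Dusp2 is larger with DHA at both hours.

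Cell cycle class moved with several of the genes. Before and 1 h after LPS, Dusp1, Dusp4, Dusp5 and Dusp16 were higher in low-cycling cells in all 5 libraries (Con and both arms at 0 and 1 h). Dusp5 had a low-cycling to other ratio of 3.70 (2.20 to 5.91) in Con and 1.3 (1.24 to 1.36) in Veh.LPS.1. Dusp1 had 1.98 (1.51 to 2.56) in Veh.LPS.0 and 1.41 (1.31 to 1.51) in DHA.LPS.1. Dusp2 went the other way, with ratios under 1 in all 7 libraries, from 0.478 (0.237 to 0.860) in Con to 0.930 (0.658 to 1.29) in Veh.LPS.0. At 4 h in Veh, Dusp1 (0.788) and Dusp4 (0.731) were instead lower in low-cycling cells.

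**Figure D5:**
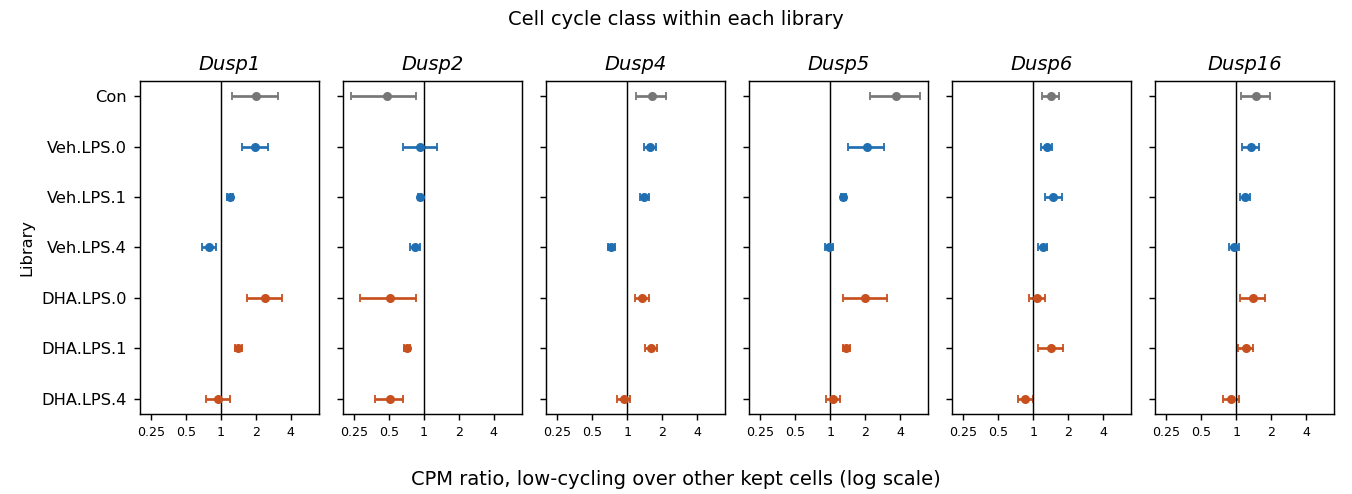
Ratio of CPM in low-cycling cells over the other kept cells of the same library (log axis) with exact 95% counting intervals, gray for Con, blue for vehicle and orange for DHA. Dusp2 lies below 1 in all 7 libraries, and Dusp1, Dusp4 and Dusp5 move from above 1 before LPS to about 1 or below it at 4 h.

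The DHA comparison was repeated inside each class of barcodes, since DHA and Veh libraries differed in their shares of low-cycling and of high-mitochondrial barcodes. For Dusp2 at 4 h the ratio of DHA to vehicle was 0.326 (0.255 to 0.411) in low-cycling cells, 0.538 (0.453 to 0.636) in the other kept cells and 0.221 (0.183 to 0.267) in barcodes over the mitochondrial limit. At 1 h it was 0.572 (0.541 to 0.605), 0.736 (0.715 to 0.757) and 0.811 (0.767 to 0.859). Dusp2 was thus lower with DHA in all 3 classes at 1 h and 4 h, but in barcodes over the limit at 4 h so were the other 5 genes. At 0 h the ratio of Dusp2 was 0.497 (0.265 to 0.891) in low-cycling cells. It was 0.913 (0.711 to 1.16) in the other kept cells and 0.672 (0.416 to 1.1) in barcodes over the limit, where the intervals included 1. Dusp16 at 1 h was also like in the 3 classes, at 0.778, 0.774 and 0.764. Dusp1 at 1 h was higher with DHA in low-cycling (1.40, 1.29 to 1.51) and other kept cells (1.18, 1.12 to 1.24), but not beyond counting error in barcodes over the limit (1.03, 0.928 to 1.14). Dusp4 at 0 h was higher with DHA in low-cycling cells (1.26, 1.08 to 1.46) and other kept cells (1.46, 1.33 to 1.60), and at 1.13 (0.927 to 1.37) in barcodes over the limit. Those 4 h ratios in barcodes over the limit were 0.341 (0.271 to 0.428) for Dusp1, 0.548 (0.466 to 0.644) for Dusp5, 0.670 (0.602 to 0.747) for Dusp4, 0.679 (0.604 to 0.763) for Dusp16 and 0.774 (0.661 to 0.906) for Dusp6. Mitochondrial UMIs take at least 20% of the total in those barcodes, which leaves a smaller part of it for other genes. Dusp16 was still higher there than in kept cells in Veh.LPS.1 (33.9 against 31.7 CPM), DHA.LPS.1 (25.9 against 25.2) and Veh.LPS.4 (30.8 against 29.3). In the other libraries it was lower there. What part these classes play in the differences was not tested.

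The rest of the pathway was read from lists of genes chosen by function, scaled by total UMIs only. So scaled, the median gene at 4 h had a log2 ratio of -0.419 with vehicle and -0.305 with DHA. List genes near the limit were not checked under the other scalings, where their calls may differ. Among 20 other dual-specificity phosphatases, 11 had a mean of at least 2 CPM. With 1 h of LPS and vehicle 1 of them was over the limit, where 4.85% of all genes were. This was Dusp8, a JNK and p38 phosphatase, at 12.5 CPM against 0.496 in Veh.LPS.0. The 2 under it, where 6.65% of all genes were, were Styx and Dusp7, an ERK phosphatase close to Dusp6, at 17.3 against 44.45 CPM. Dusp7 thus lay with Dusp6 at 1 h, but at 4 h it was lower still, at 7.34 CPM, where Dusp6 was higher. With 4 h of LPS and vehicle 7 of the 11 were lower and 1 higher, beside 41.5% and 9.89% of all genes. The list's median log2 ratio was -0.727 against -0.419 for all genes. Dusp10, another JNK and p38 phosphatase, had a mean of 1.28 CPM and was not compared.

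Few kinases passed the limit at 1 h. At that hour 4.85% of all genes were over it and 6.65% under it with vehicle. With DHA 5.49% were over it and 7% under it. Lists this short would hold few such genes at those shares. Of 7 MAP kinases with a mean of at least 2 CPM, none passed the limit at 1 h in either arm, and Mapk3 (ERK1) and Mapk9 (JNK2) were lower at 4 h in both, a smaller part of the list than the 41.5% and 35.3% of all genes. No MAP2 kinase of 6 passed at 1 h. Map2k3 lay just within the limit, at a log2 ratio of 0.58 with vehicle and 0.57 with DHA. Of 15 MAP3 kinases and adaptors, 1 was higher at 1 h in each arm, beside 4.85% of all genes with vehicle and 5.49% with DHA. It was Map3k8, which links Toll-like receptors to ERK, with a log2 ratio of 0.86 with vehicle and 0.61 with DHA. At that hour 3 of the 15 were lower with vehicle and 2 with DHA, beside 6.65% and 7% of all genes. At 4 h 5 were lower with vehicle and 7 with DHA, beside 41.5% and 35.3% of all genes, and 0 and 2 were higher, beside 9.89% and 10.2%. The lowest with vehicle was Map3k4, at a log2 ratio of -1.73. The 8 kinases that MAP kinases activate were all within the limit at 1 h. At 4 h 3 of them were lower in each arm and none higher, where 41.5% (vehicle) and 35.3% (DHA) of all genes were lower. Rps6ka5 was the lowest, at a log2 ratio of -2.80 with vehicle and -2.11 with DHA. Of 7 other phosphatases that act on MAP kinases, 1 was higher and 1 lower at 4 h in each arm. Ptpn7 was higher, at 115 CPM against 56.9 at 0 h with vehicle and 111 against 38.1 with DHA, beside 9.89% and 10.2% of all genes. Ppm1d was lower, at a log2 ratio of -1.20 with vehicle and -0.98 with DHA, beside 41.5% and 35.3% of all genes.

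ERK output genes and feedback inhibitors were read beside the phosphatases as transcripts only, and ERK activity was not measured. With vehicle, 6 of 9 output genes were over the limit at 1 h (4.85% of all genes) and none under it, and 8 of 9 were lower at 4 h than at 1 h (34.1% of all genes). With DHA 5 of 9 were over the limit at 1 h (5.49%) and 8 of 9 were lower at 4 h than at 1 h (26.4%). Against 0 h, 4 of 9 were higher and 5 lower at 4 h with vehicle (9.89% and 41.5% of all genes). With DHA 3 were higher and 5 lower (10.2% and 35.3%). Egr1, an early transcription factor, was at 9.66 CPM in Veh.LPS.0, 648 in Veh.LPS.1 and 17.8 in Veh.LPS.4. Against vehicle, DHA put Phlda1 alone under the limit at 1 h, at 187 against 358 CPM, and Phlda1 and Egr1 at 4 h. Of all genes, 2.42% were under it at 1 h and 2.77% at 4 h. Errfi1, a feedback inhibitor of the EGF receptor, was the 1 of 4 inhibitors over the limit with LPS. Its level was 2.17 CPM in Veh.LPS.0, 95.3 in Veh.LPS.1 and 19.5 in Veh.LPS.4. With vehicle 4.85% of all genes were over the limit at 1 h and 9.89% at 4 h. Spred2 and Spred3 of the same list were under the limit at 4 h in both arms, beside 41.5% of all genes with vehicle and 35.3% with DHA. Of 8 transcription factors listed as direct or indirect targets of p38 or JNK, Jun was the 1 over the limit at 1 h. It was at 451 against 66.3 CPM with vehicle, beside 4.85% of all genes over the limit. Of 4 heat shock genes, read as a sign of stress in handling, Dnajb1 was over the limit at 1 h, beside 4.85% and 5.49% of all genes. It was at 90.2 CPM with vehicle and 61.1 with DHA against 23.5 and 21.75 at 0 h. The part of handling stress in the 1 h levels was not tested.

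Some genes followed a phosphatase closely across the 7 libraries, by Pearson r of log2(CPM + 1) among 7492 genes that varied at least 1.5-fold. These describe 7 points that share their libraries and depths, and the highest r among so many genes on so few points is high in any case. For Dusp1 the nearest were Fosl2 (r = 0.9975), Arl5b (0.9944) and Eid3 (0.9918), all highest in DHA.LPS.1. For Dusp2 they were Taf7 (0.9969), Egr2 (0.9958) and Ier2 (0.9958), all highest in Veh.LPS.1. For Dusp5 they were Kdm6b (0.9974), Nfkbiz (0.9958) and Nfkbia (0.9952). For Dusp4 they were P2ry10b (0.9920), Vmp1 (0.9909) and Sdcbp (0.9908). For Dusp6 they were Rassf1 (0.9939), Gm46224 (0.9879) and Zfp382 (0.9781). For Dusp16 they were Coq10b (0.9940), Pde4b (0.9939) and Nlrp3 (0.9912). Over the 6 reduced-serum libraries, without Con, the nearest gene stayed the same for Dusp1, Dusp2 and Dusp5. It became Rusc2 for Dusp4, 9930104L06Rik for Dusp6 and Phlda1 for Dusp16. Among the 6 phosphatases themselves, over the 7 libraries, r ran from -0.8046 for Dusp2 and Dusp6 to 0.9730 for Dusp1 and Dusp2.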

How the data were processed

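Single cells were captured with 10x 3′ v3 chemistry. The authors deposited UMI counts per gene and barcode, without normalization. The submitters' processing notes name Cell Ranger 3.1.0 and build mm10, while the methods name another Cell Ranger version. Barcodes with over 20000 UMIs, at least 2000 genes and under 20% mitochondrial UMIs were kept, as in the methods. Doublets were not removed. Counts were summed per library and divided by the library's total (CPM). With 1 library per condition no test was run, and a gene was compared between libraries by its ratio of CPM where its mean was at least 2 CPM. For shares of cells, each cell was thinned to 20000 UMIs. Total UMIs of kept cells were 22045775 to 125716982 per library. The phosphatases and gene lists were chosen with earlier results of these data known. Named genes were all 6 phosphatases, the 3 genes most like each, and the extremes or counted genes of each list. Dusp10, Egr1, Phlda1, Ptpn7, Ppm1d, Map3k4, Rps6ka5, Alb, Afp, Spred2, Spred3, Styx, Rusc2 and 9930104L06Rik were named after their values were seen. Coordinates are those of the RefSeq table for GRCm38.p6, in which all 6 symbols matched. Alternatives were other scalings with edgeR 4.0.16 (TMM) and DESeq2 1.42.0 (size factors), other barcode filters, equal weight per cell, thinning, low-cycling cells, other filters on genes, a fold limit of 2 and, added after seeing the data, leaving out the cell richest in each gene. The ratio was tested on simulated counts. Python 3.11.15, numpy 2.4.6, scipy 1.17.1, pandas 2.3.3, matplotlib 3.10.9 and R 4.3.3 were used.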

Additional observations from a re-analysis of the deposited data

Results flagged for a closer look

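Dusp5 lay on opposite sides of vehicle at different hours. Its log2 ratio of DHA to vehicle was 0.46 at 0 h and 0.13 at 1 h, and -0.17 at 4 h, with each counting interval on its own side of 0. Without the cell richest in Dusp5 in each library, the ratio at 0 h was 1.31 (0.999 to 1.71), an interval that included 1. The difference between the hours was not tested across replicates, since each condition was 1 library. Over all barcodes the 3 values were 0.02, -0.34 and -0.73. The median over all genes was -0.22, -0.28 and -0.14 there, against -0.05, -0.05 and 0.09 over kept cells.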

How the results depend on the processing

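No paired analysis was possible because each condition was 1 library. Counts of the 6 genes past the limit kept within 1.5 times the main count, except as follows. For serum reduction the main count of 2 became 1 in low-cycling cells, when genes had to be seen in 25% of cells, and with a fold limit of 2. For LPS 4 h in DHA, 5 became 3 with the 25% filter. For DHA at 0 h, 0 became 1 with TMM factors, DESeq2 size factors, all barcodes, cells weighted equally and low-cycling cells, and 2 under 10% mitochondrial UMIs, with thinned cells, and without the 5% of cells with the most UMIs. For DHA at 1 h, 0 became 1 with all barcodes and low-cycling cells, and for DHA at 4 h, 1 became 2 with all barcodes, as Dusp5 joined Dusp2. At 0 and 1 h the gene was Dusp4 under the scalings and equal weights, Dusp2 with all barcodes and in low-cycling cells, and Dusp4 and Dusp5 where 2 were counted at 0 h. With all barcodes the share of higher genes among all past the limit was 32.2% for DHA at 0 h and 23.7% at 1 h, against 54.5% and 46.5%. For serum reduction in low-cycling cells, the sign of Dusp2 turned (0.33 against -0.62), on 11 UMIs in Con and 42 in Veh.LPS.0. No other ratio past the limit turned its sign under the settings tried. Among ratios within the limit the sign turned in 15 cases. The farthest was Dusp5 in the same comparison and cells (-0.53 against 0.37), on 20 UMIs in Con and 42 in Veh.LPS.0. Of the 60 log2 ratios, 26 moved out of their counting interval with DESeq2 factors, 24 with TMM factors, 17 with all barcodes, 44 in low-cycling cells, and at most 10 under each other setting. That interval is the one of the main ratio and leaves out the counting error of the other setting. In low-cycling cells, with fewer UMIs, that error is larger, so some of these moves may lie within it. The cause of the moves was not tested. The planned motif search was not run. Dusp1, Dusp2 and Dusp5 had under 5 CPM in most libraries without LPS, where depth limits the precision of their ratios most.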
